A study of Mus musculus with 4 samples.

Results

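Genes that the tumour suppressor p53 switches on were followed across the 4 arrays of a study in mouse J1 embryonic stem cells. The set was a list of 33 symbols, p53 itself (Trp53) with its target genes and regulators, and every probe set whose platform annotation names 1 of these symbols was taken. In all 52 probe sets for 30 genes were found, out of 17097 named genes in the series, while Trp53, Bax and Fdxr were not analysed here. Of the 30 genes, 16 had 1 probe set and 14 had several.

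The study crossed overexpression of PRDM14, a PR-domain regulator of pluripotent and germ cells, with the combined knockdown of Tet1 and Tet2, dioxygenases that oxidise 5-methylcytosine, to learn how far transcriptional regulation by PRDM14 depends on these enzymes. The 4 conditions were Tet1/Tet2 knockdown with PRDM14, Tet1/Tet2 knockdown alone, scramble with PRDM14, and scramble alone, with 1 array each. Per the labels' protocols all came from iP14 cells of the J1 line, kept without feeder cells in serum and LIF; the knockdown was by short hairpin, and cells were taken with or without doxycycline. The scramble array is described elsewhere in its labels as wild type. Which arrays had doxycycline is inferred here from the PRDM14 in their titles. On that reading no array was of doxycycline-treated cells without PRDM14, so an effect of doxycycline and one of PRDM14 cannot be told apart. No condition had a replicate, so the spread within a condition is unknown, and precision is limited by the number of arrays. The deposited values are log2 signals, on which a difference of 1 is 2-fold. In bulk RNA, fewer cells of a type and less RNA per cell cannot be told apart.

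Stem cell identity was checked on 10 marker genes measured, among them Pou5f1, Sox2 and Nanog: all 10 were at or above the expression filter of 5.40 (the median of all named probe set values) on all 4 arrays. Of 8 fibroblast or feeder markers 7 were below it on all 4 arrays, and the mean log2 level of that list ranged from 4.11 to 4.17. Of the primitive endoderm, trophectoderm, and mesoderm and neuroectoderm markers, 4 of 6, 3 of 5 and 3 of 5 measured genes were below the filter on every array. Tet2 read 8.15 with the knockdown and PRDM14, against 9.33 in scramble with PRDM14, and 7.50 with the knockdown alone, against 8.46 in scramble. Prdm14 read between 4.35 and 4.83, below the filter on all 4 arrays, which leaves the PRDM14 labels unchecked. Tet1 was not read in this check, so the Tet1 part of the knockdown labels is unchecked too.

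p53 is a transcription factor that is held low by the ubiquitin ligase Mdm2 and its partner Mdm4, and that accumulates when DNA is damaged or growth signals are abnormal. It binds DNA as a tetramer and activates genes that halt the cell cycle, repair DNA, supply nucleotides or start apoptosis, and it also activates Mdm2, which closes a feedback loop. Mouse embryonic stem cells express p53, where it is known for its part in genome integrity and in differentiation.

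The p53 target genes mostly read highest on the plain scramble array. Each gene was read on its brightest probe set (highest mean). The filter was reached on at least 1 array by 25 of the 30 genes, and in 16 of these 25 (64.0%) the scramble array held the highest of the 4 values, as it did in 29.7% of all 10519 genes above the filter. Several of these 16 were near ties. The next highest array differed from scramble by −0.02 in Btg2, −0.05 in Rps27l and Ei24, and −0.06 in Ckap2. In Ccng1 and Xpc it differed by −0.07, and in Gtse1 by −0.08. These margins were smaller than the scatter among probe sets that share a gene (SD 0.22 and 0.21 in the comparisons with scramble). The rest of the 16 had wider margins, up to −0.59 in Trp53inp1. Among these 16, Ccng1, Btg2 and Mdm4 had another probe set above the filter that was not highest on scramble. With every probe set above the filter counted on its own, 52.6% were highest on scramble, against 29.8% of all. Knockdown with PRDM14 held the highest value in 4 of the 25 genes, knockdown alone in 2 and scramble with PRDM14 in 3, against 22.0%, 22.5% and 25.9% of all genes. A smaller group stood the other way: Perp, Sesn1, Apaf1, Aen and Plk3 read lowest on the scramble array, 5 of 25 genes against 31.1% of all genes. The lowest value fell on knockdown with PRDM14 in 8 genes, on knockdown alone in 4 and on scramble with PRDM14 in 8, against 21.7%, 20.7% and 26.5% of all genes. Measured from the mean of the other 3, the root mean square distance of each array over the 25 genes was 0.209 for knockdown with PRDM14, 0.224 for knockdown alone, 0.256 for scramble with PRDM14 and 0.455 for scramble. Over all genes above the filter the same distances were 0.205, 0.199, 0.258 and 0.281, so scramble stood furthest out there too, by a smaller margin. The distance carries no sign, so genes lowest on scramble add to it as well. Among them Perp read 6.26 on scramble against 7.53 to 7.78 on the others, and Sesn1 6.82 against 7.39 to 7.73. These shares describe 4 arrays and carry no test.

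**Figure D1:**
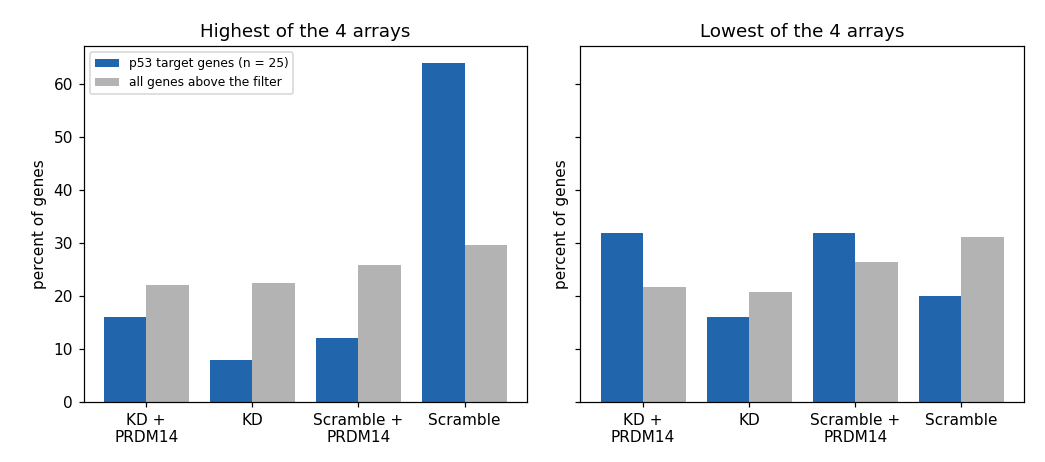
Percent of genes (y axis) whose highest (left) or lowest (right) log2 signal fell on each of the 4 arrays (x axis), for the 25 p53 target genes above the filter (blue) and all 10519 genes above it (grey). Read on the brightest probe set of each gene, the scramble array held the highest value in 64.0% of the p53 target genes and in 29.7% of all genes. The bars rank the arrays and take no account of the size of the margin.

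Control probe sets on that array also differed from the rest. The 5′ probe set of 18S rRNA read 10.95 to 11.37 on the other 3 arrays and 11.79 on the scramble array. That of Actb read 12.11 to 12.16 on the others and 11.80 on scramble. The difference was not particular to 5′ probe sets. The 3′ and middle probe sets of 18S rRNA were also highest on scramble, and those of Actb were also lowest there. The 5′, middle and 3′ probe sets of Gapdh were lowest on scramble too, at 12.30, 12.02 and 12.23. The part of these control differences in the p53 target values was not tested. Of the 4 comparisons below, PRDM14 in scramble cells and the knockdown without PRDM14 both subtract the scramble array and cannot be made without it; PRDM14 in knockdown cells and the knockdown with PRDM14 do not contain it.

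The 2-fold rule, which asks for a difference of at least 1 with the higher array at or above the filter, called very few of these genes. With PRDM14 in scramble cells 1 of 25 genes was called higher (Perp) and 0 lower, against 1.09% and 1.00% of 10366 genes. With PRDM14 in knockdown cells 0 were called higher and 0 lower, against 0.359% and 0.272% of 10311 genes. In the knockdown without PRDM14 1 of 25 was called higher (Perp again) and 0 lower, against 0.618% and 0.444% of 10351 genes. In the knockdown with PRDM14 0 were called in either direction, against 0.630% higher and 0.475% lower of 10322 genes. Perp was thus the 1 gene called, and the 2 comparisons that called it share the scramble array.

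Smaller differences were more frequent in those same comparisons, read on the brightest probe set of each gene. At 1.5-fold, PRDM14 in scramble cells gave 4 of 25 lower (Cdkn1a, Mdm4, Trp53inp1 and Xpc) and 1 higher (Perp), against 3.91% and 4.28% of all genes. The knockdown without PRDM14 gave 2 lower (Ccng1 and Trp53inp1) and 2 higher (Perp and Sesn1), against 2.16% and 2.93%. Several of these depended on the setting. With probe sets averaged per gene, PRDM14 in scramble cells gave −0.22 for Mdm4 and −0.31 for Trp53inp1, and the knockdown without PRDM14 gave −0.32 for Trp53inp1 and −0.43 for Ccng1, all short of 1.5-fold, while Sesn1 passed it with PRDM14 in scramble cells at 0.98. Xpc was −0.47 when its sub-filter reading was set to the filter, also short of 1.5-fold, and Trp53inp1 fell short with PRDM14 in scramble cells (−0.576) when each array was centred on its median. Under each of these 3 settings Perp stayed past 1.5-fold in both comparisons, Cdkn1a with PRDM14 in scramble cells and Sesn1 in the knockdown without PRDM14. Neither comparison without the scramble array had a p53 target gene past 1.5-fold on its brightest probe set, though the second Cdkn1a probe set was at −0.67 with PRDM14 in knockdown cells. In these comparisons 1.46% of all genes were higher and 1.35% lower with PRDM14 in knockdown cells, and 2.39% were higher and 1.95% lower in the knockdown with PRDM14. The genes are taken up below by what their products do.

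Several of these promoters carry letters that p53 is known to read, and the stretches are printed for the genes that the results below return to. RefSeq promoter windows (GRCm38.p6, from 250 bases before to 50 after the start site) were found for 22 of the 30 genes, and 10 of the 22 held at least 1 exact match to the 10-base p53 half-site consensus, which reads the same on both strands, against 9.55% of the 27025 genes with a window. The genes were listed as p53 targets, so this share is a description of the list. A match in these letters shows no binding. In each stretch the capitals mark the matches, and the bases run 5′ to 3′ on the gene's strand, all upstream of an annotated start site of the gene.
Cdkn1a (chr17:29090876-29090967, plus strand): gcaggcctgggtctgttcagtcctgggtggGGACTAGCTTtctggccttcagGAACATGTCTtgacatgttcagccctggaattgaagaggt
Sesn1 (chr10:41887236-41887315, plus strand): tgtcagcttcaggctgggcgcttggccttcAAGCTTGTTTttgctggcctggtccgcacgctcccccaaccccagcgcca
Ccng1 (chr11:40755422-40755501, minus strand): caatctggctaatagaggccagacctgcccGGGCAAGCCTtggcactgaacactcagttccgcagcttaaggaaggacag
Mdm2 (chr10:117710895-117710974, minus strand): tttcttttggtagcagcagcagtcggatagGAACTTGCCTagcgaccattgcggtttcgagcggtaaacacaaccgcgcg
Aen (chr7:78895907-78895986, plus strand): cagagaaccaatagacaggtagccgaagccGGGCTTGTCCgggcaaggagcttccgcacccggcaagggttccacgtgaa
Rps27l (chr9:66946173-66946345, plus strand): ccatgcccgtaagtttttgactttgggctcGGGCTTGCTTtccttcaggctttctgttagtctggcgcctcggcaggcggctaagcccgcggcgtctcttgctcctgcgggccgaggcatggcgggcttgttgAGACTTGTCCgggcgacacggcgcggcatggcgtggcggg
The Cdkn1a and Rps27l stretches hold 2 matches each and the other 4 hold 1. The Cdkn1a matches begin at −73 and −51 relative to the more upstream of its 2 start sites, and the Aen match begins at −121 relative to one start site and at 11 relative to another. Polk, Ckap2, Ei24 and Gtse1 also had a match in a window. Genes with a match went both ways on the arrays, with Sesn1 and Aen lowest and Cdkn1a, Ccng1, Mdm2 and Rps27l highest on the scramble array. For Ccng1 this held on the brightest probe set alone. A second Ccng1 probe set was highest in scramble with PRDM14 (7.89, against 7.69 in scramble), and the third was lowest in scramble (8.09).

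The 2 negative regulators read highest in scramble on their brightest probe sets. Mdm2, which marks p53 for degradation and is itself a p53 target, read 8.76 with the knockdown and PRDM14, 8.78 with the knockdown, 8.73 in scramble with PRDM14 and 9.04 in scramble. The 3 perturbed arrays lay within 0.05 of each other, and scramble alone stood apart; the differences were −0.31 for PRDM14 in scramble cells and −0.27 for the knockdown without PRDM14, and −0.01 and 0.03 in the 2 comparisons without scramble. A second Mdm2 probe set gave −0.12 and −0.24, and 0.05 and −0.07. Mdm4, the partner of Mdm2 that blocks p53's activation domain, read 7.63, 7.87, 7.45 and 8.19 in the same order of arrays. It differed by −0.24 with PRDM14 in knockdown cells and by −0.75 in scramble cells, so both arrays with PRDM14 read below their partners. Its other probe set above the filter gave −0.05 and −0.07, and 2 more below the filter gave −0.19 and 0.11 in scramble cells, so the larger Mdm4 difference rests on 1 of 4 probe sets. Nor was the other Mdm4 probe set above the filter highest in scramble, reading 6.43 there and 6.46 with the knockdown alone.

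Among genes of cell cycle arrest, Cdkn1a (p21, the cyclin-dependent kinase inhibitor through which p53 stops the cycle) was lower on both arrays with PRDM14. Its brighter probe set read 7.36 with the knockdown and PRDM14, against 7.74 with the knockdown alone, and 7.28 in scramble with PRDM14, against 7.93 in scramble. The second read 6.67 against 7.33 and 6.78 against 7.34. Both PRDM14 arrays thus lay below both arrays without it on each probe set, by −0.38 and −0.67 in knockdown and −0.65 and −0.56 in scramble cells, and these 2 comparisons share no array. The knockdown differences of Cdkn1a were smaller, 0.08 and −0.11 with PRDM14 and −0.19 and −0.003 without it. Cdkn1a was the 1 gene of 25 at or below −0.3 in both PRDM14 comparisons, as were 1.91% of all genes, and 0 were at or above 0.3 in both, against 1.96%.

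Ccng1 (cyclin G1, a p53 target that recruits a phosphatase to Mdm2) was lower on the knockdown arrays on 2 of its 3 probe sets. The brightest read 9.56 with the knockdown and PRDM14, 9.21 with the knockdown, 9.99 in scramble with PRDM14 and 10.06 in scramble. Both knockdown arrays lay below both scramble arrays, with differences of −0.43 with PRDM14 and −0.86 without it, 2 comparisons that share no array. A second probe set gave −0.43 and −0.46, and the third 0.03 and 0.03. Which transcripts the probe sets read is not given in the sources used here. Ccng1 and the receptor gene Eda2r were the 2 of 25 genes at or below −0.3 in both knockdown comparisons, as were 1.29% of all genes, and 0 were at or above 0.3 in both, against 2.05%.

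Sesn1 (sestrin 1, which restrains the growth kinase complex mTORC1) was lowest on the scramble array on each of its 3 probe sets above the filter. The brightest read 7.44 with the knockdown and PRDM14, 7.73 with the knockdown, 7.39 in scramble with PRDM14 and 6.82 in scramble. The second read 7.41, 7.77, 7.63 and 6.32, and the third 5.68, 5.98, 5.77 and 4.71, in the same order. In all 3 the knockdown array was highest and scramble stood apart. PRDM14 in scramble cells gave 0.57, 1.31 and 1.06, and the knockdown without PRDM14 gave 0.91, 1.44 and 1.27, so that 2 of 3 probe sets passed 2-fold in each while the brightest passed in neither. With PRDM14 in knockdown cells the differences turned to −0.29, −0.36 and −0.30, and in the knockdown with PRDM14 they were 0.05, −0.22 and −0.09.

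**Figure D2:**
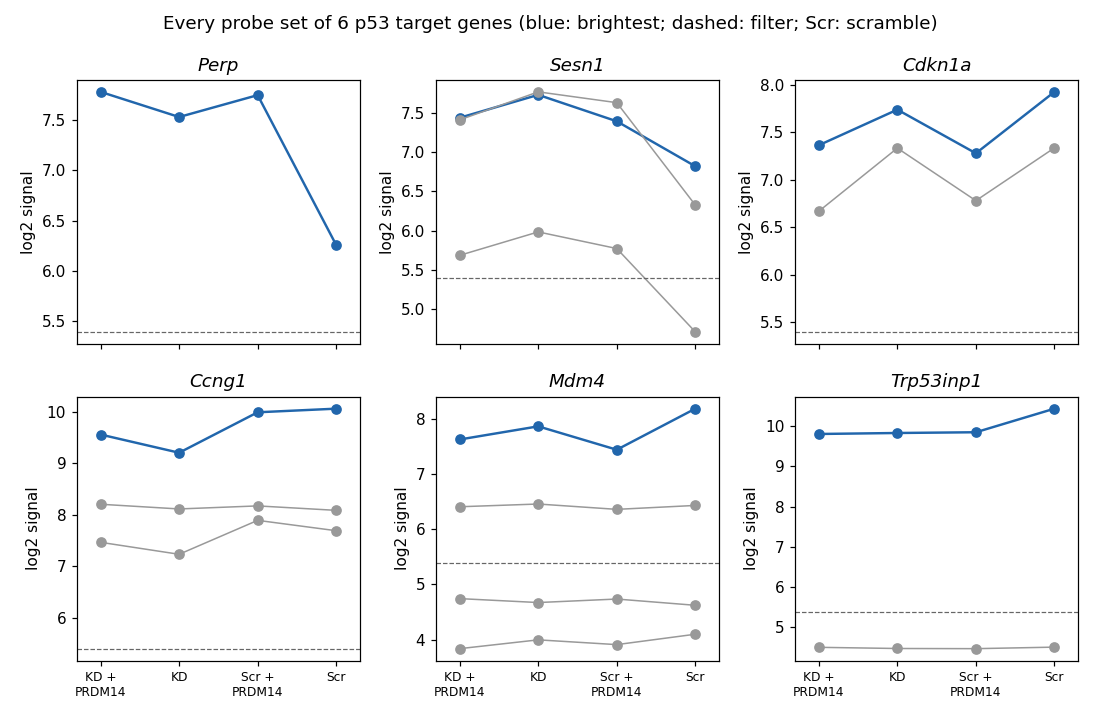
The log2 signal (y axis) of every probe set of Perp, Sesn1, Cdkn1a, Ccng1, Mdm4 and Trp53inp1 on the 4 arrays (x axis), with the brightest in blue, others in grey and the filter of 5.40 dashed; the y range differs between panels. Perp and Sesn1 drop on the scramble array, Cdkn1a is lower on both arrays with PRDM14, and 2 of 3 Ccng1 probe sets are lower on both knockdown arrays.

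The other arrest genes varied less. Plk3, a polo-like kinase of stress responses, read 6.13 with the knockdown and PRDM14, 6.34 with the knockdown, 6.55 in scramble with PRDM14 and 5.98 in scramble. Its PRDM14 difference was −0.21 in knockdown and 0.58 in scramble cells. Zmat3, an RNA-binding zinc finger protein, read 8.21, 8.34 and 8.37 on the 3 perturbed arrays in that order and 8.76 in scramble, a difference of −0.39 with PRDM14 and −0.42 with the knockdown. Plk2, another polo-like kinase, was −0.22 and −0.29 in these comparisons. Gtse1, which binds microtubules and exports p53 from the nucleus, differed by −0.21 to −0.0004 over the 4 comparisons, and Ckap2, a spindle protein, by −0.10 to −0.06. The antiproliferative gene Btg2 differed by −0.03 to −0.02 on its brightest probe set and between −0.16 and 0.16 on the other.

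Apoptosis genes held both the largest difference and several small ones of opposite sign. Perp, a membrane protein that p53 induces during apoptosis and that also acts in cell junctions, read 7.78 with the knockdown and PRDM14, 7.53 with the knockdown, 7.74 in scramble with PRDM14 and 6.26 in scramble. The 3 perturbed arrays lay within 0.25 of each other and scramble stood far below them, all 4 above the filter. Perp was 2.80-fold higher with PRDM14 in scramble cells and 2.41-fold higher in the knockdown without PRDM14, and 1.19-fold and 1.02-fold higher in the comparisons without scramble. It had 1 probe set. The PRDM14 difference in knockdown cells minus that in scramble cells was −1.24, and Perp was the 1 gene of 25 at or below −1 on this measure, as were 1.29% of all genes, while 0 reached 1, against 0.979%.

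Apaf1, the scaffold of the apoptosome that activates caspase 9, followed Perp at a smaller size. It read 7.60 with the knockdown and PRDM14, 7.41 with the knockdown, 7.44 in scramble with PRDM14 and 6.88 in scramble. Its differences were above 0 in all 4 comparisons, at 0.19 and 0.55 for PRDM14 in knockdown and scramble cells and 0.16 and 0.52 for the knockdown with and without PRDM14, and its second probe set gave 0.11, 0.25, 0.07 and 0.21. Aen, a nuclease that p53 induces, read 8.85, 8.83, 8.93 and 8.56 in the same order of arrays. Aen was thus 0.37 and 0.27 higher in the comparisons with scramble, and its second probe set above the filter gave 0.58 and 0.33. Perp, Sesn1 and Apaf1 are all on chromosome 10, as is Mdm2, and the 503 chromosome 10 genes above the filter had median differences between −0.0003 and 0.004 in the 4 comparisons.

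The other apoptosis genes leaned the opposite way, highest in scramble. Trp53inp1, a nuclear stress protein that helps p53 to be phosphorylated, read 9.81 with the knockdown and PRDM14, 9.83 with the knockdown, 9.85 in scramble with PRDM14 and 10.44 in scramble. The perturbed arrays lay within 0.05 of each other, and the differences from scramble were −0.59 with PRDM14 and −0.60 with the knockdown; its other probe set was below the filter, with no difference beyond 0.04. Phlda3, a competitor of the kinase Akt at the membrane, read 7.39, 7.46 and 7.57 on the perturbed arrays and 7.96 in scramble, at −0.39 and −0.50. Pmaip1 (Noxa), a BH3-only protein that neutralises the survival factor Mcl1, read 6.88, 6.82, 6.55 and 7.04, with its lowest value in scramble with PRDM14. Bbc3 (Puma), the other BH3-only gene, was −0.25 with PRDM14 and −0.23 with the knockdown, and within 0.04 in the comparisons without scramble. Ei24, a membrane protein of the endoplasmic reticulum, was −0.18 and −0.32 in the knockdown with and without PRDM14.

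**Figure D3:**
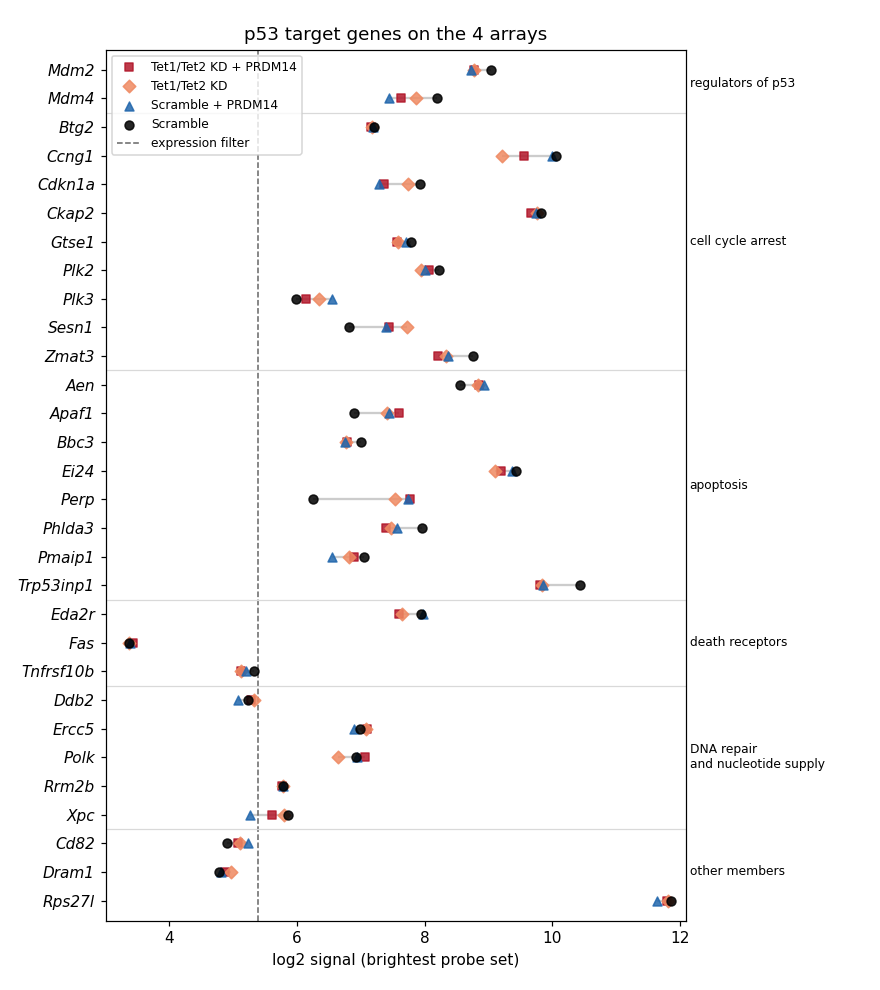
The log2 signal (x axis) of the brightest probe set of each of the 30 p53 target genes (rows, grouped by role) on the 4 arrays, with the filter of 5.40 dashed. Black circles for scramble lie at the right end of most rows and, among genes above the filter, at the left end for Perp, Sesn1, Apaf1, Aen and Plk3; 5 genes lie left of the filter on every array.

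Death receptor genes were dim but for 1. Eda2r, an X-linked receptor of the tumour necrosis factor family, read 7.59 with the knockdown and PRDM14, against 7.97 in scramble with PRDM14, and 7.64 with the knockdown, against 7.95 in scramble. Both knockdown arrays lay below both scramble arrays, by −0.39 and −0.30, and its PRDM14 differences were −0.06 and 0.03 in knockdown and scramble cells. Fas read between 3.36 and 3.43 and Tnfrsf10b between 5.11 and 5.32, below the filter on every array.

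DNA repair genes showed no shared direction. Xpc, which recognises helix-distorting damage, read 5.61 with the knockdown and PRDM14, 5.80 with the knockdown, 5.26 in scramble with PRDM14 and 5.87 in scramble. Its array with the lowest value, scramble with PRDM14, was below the filter, and its PRDM14 difference was −0.18 in knockdown and −0.61 in scramble cells. Polk, a translesion polymerase, read 7.06, 6.64, 6.93 and 6.93 in the same order, with a difference of 0.42 for PRDM14 in knockdown cells and 0.007 in scramble cells, and its second probe set gave 0.15 and −0.12. Ercc5, the endonuclease that cuts 3′ of a lesion, read 7.10, 7.08, 6.89 and 6.99, within 0.21 in every comparison. Rrm2b, the p53-induced subunit of ribonucleotide reductase, read 5.77 to 5.78 on its brightest probe set, and its 3 other probe sets were below the filter. Ddb2, the partner of the damage sensor Ddb1, stayed below the filter at 5.08 to 5.33.

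Of the remaining genes, Rps27l, a ribosomal protein paralogue, read 11.80 with the knockdown and PRDM14, 11.81 with the knockdown, 11.64 in scramble with PRDM14 and 11.86 in scramble. Its 3 probe sets gave −0.03 to −0.01 for PRDM14 in knockdown cells and −0.34 to −0.22 in scramble cells. Signal from the near-identical gene Rps27 cannot be told apart from it with these files. The tetraspanin gene Cd82 (4.91 to 5.23) and the autophagy gene Dram1 (4.78 to 4.97) were below the filter on every array.

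The 25 genes above the filter had a median log2 difference of −0.08 for PRDM14 in scramble cells, −0.01 for PRDM14 in knockdown cells, −0.21 for the knockdown without PRDM14 and 0.03 for the knockdown with PRDM14, against medians between −0.001 and 0.008 over all genes. Below 0 were 18, 15, 18 and 12 of the 25 genes, against 49.5%, 50.4%, 48.3% and 49.1% of all genes. The SD of the differences over the 25 genes was 0.49, 0.19, 0.46 and 0.21, against 0.35, 0.22, 0.28 and 0.27 over all genes above the filter. The 2 comparisons with the scramble array were the wide ones, and Perp was the highest gene in both. Between probe sets of the same gene, over 3322 genes with several above the filter, the pooled SD of a difference was 0.22, 0.15, 0.21 and 0.16 in the 4 comparisons. That technical spread takes in neither the spread between cultures nor that between arrays.

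**Figure D4:**
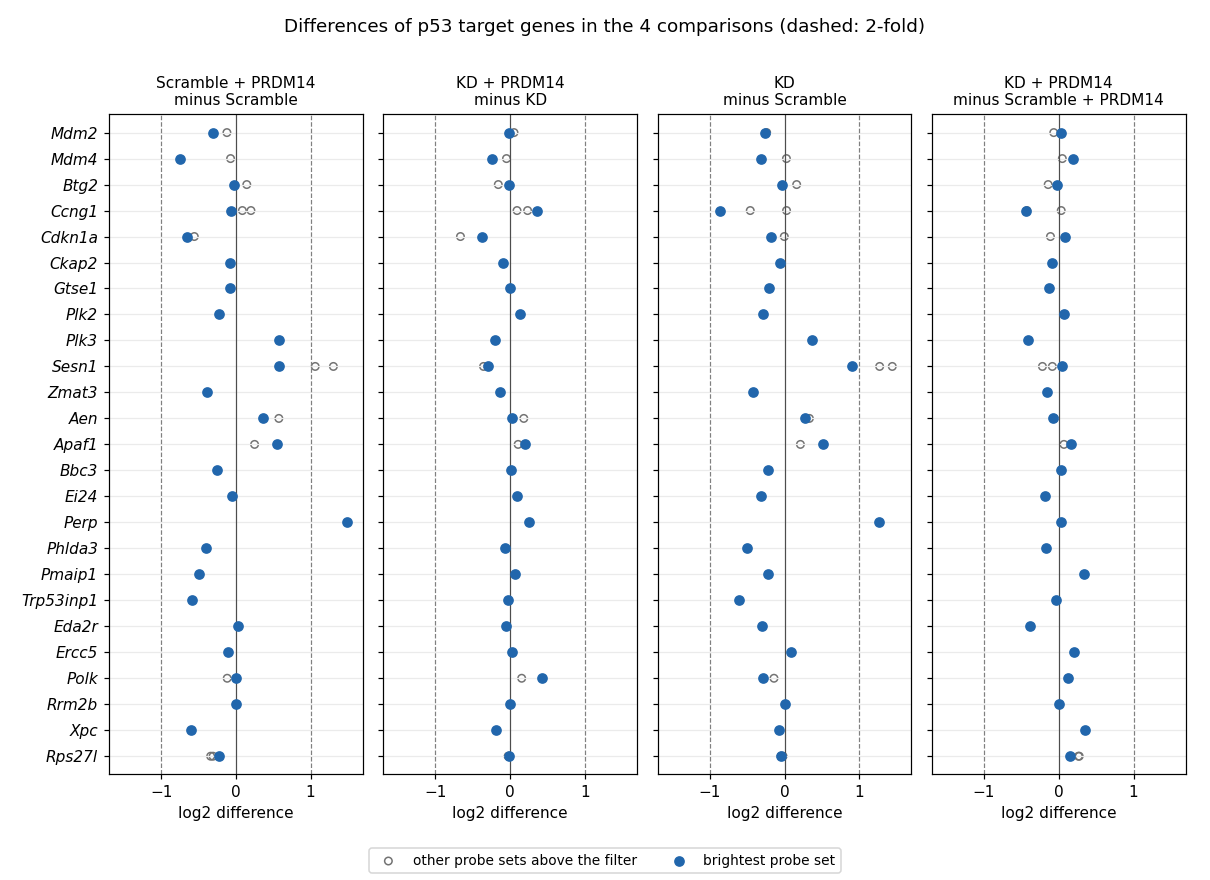
Log2 differences (x axis) of the 25 p53 target genes above the filter (rows) in the 4 comparisons named above each panel, with filled points for the brightest probe set, open points for other probe sets above the filter and dashed lines at 2-fold. Perp lies past 2-fold in the panels that subtract scramble, and the other 2 panels hold no point past 0.7 in size.

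The average effect of each factor was tested in an additive limma model over all 10519 genes above the filter, in which the dependence of one factor on the other is the error term with 1 residual degree of freedom. After Benjamini-Hochberg adjustment 0 of 25 p53 target genes passed 5% for either factor, as did 0% of all genes. At an unadjusted p below 0.05 limma gave 1 of the 25 for PRDM14 and 2 for the knockdown, against 6.07% and 5.74% of all genes. The first was Cdkn1a, with a mean difference of −0.51 ± 0.12 (SE) and a limma adjusted p of 0.782, lower with PRDM14 in both backgrounds. The others were Ccng1, at −0.65 ± 0.16 (SE), and Eda2r, at −0.34 ± 0.11 (SE), both with a limma adjusted p of 0.802 and both lower with the knockdown whether PRDM14 was induced or not. No p53 target gene is therefore called by this test. With probe sets averaged per gene, the knockdown count at an unadjusted limma p below 0.05 was 1 of 24 genes, against 5.75% of all genes.

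With PRDM14, 12 of the 25 genes were below 0 in both backgrounds and 4 above 0 in both (Aen, Apaf1, Perp and Polk), against 27.7% and 27.6% of all genes. With the knockdown, 9 were below 0 both with and without PRDM14 and 4 above 0 in both (Apaf1, Ercc5, Perp and Sesn1), against 25.3% and 27.8%. Differences of opposite sign, each beyond the spread between probe sets of its comparison, were seen in 2 of 25 genes for PRDM14 (Plk3 and Sesn1) and in 3 of 25 for the knockdown (Plk3, Mdm4 and Pmaip1), against 4.99% and 6.64% of all genes. For Mdm4 this holds on the brightest probe set alone: its other probe set above the filter gave 0.05 with and 0.03 without PRDM14, and the mean of its probe sets 0.04 and −0.09. The 2 comparisons of each pair share no array, though all 4 arrays were normalised together. The PRDM14 difference in knockdown cells minus that in scramble cells had a median of 0.20 over the 25 genes, against −0.004 over all genes, and was above 0 in 17 of 25, against 49.1% of all genes. That measure contains the scramble array.

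Other genes of the pathway were taken from lists that leave the 30 genes out. Of 24 upstream kinases and p53-modifying factors 20 were measured, and the medians over those above the filter lay between −0.03 and 0.01. Cdkn2a, whose locus encodes the Mdm2 inhibitor Arf, was the 1 called gene, lower in the knockdown without PRDM14 at −1.13. That is 1 of 18 genes above the filter, against 0.444% of all genes. Cdkn2a read 4.57 with the knockdown and PRDM14, 4.50 with the knockdown, 4.94 in scramble with PRDM14 and 5.63 in scramble, above the filter in scramble only. Damage kinase genes on this list were split. Atr and Prkdc read highest in scramble, Atr at 6.92, 7.26, 7.05 and 7.92 and Prkdc at 6.82, 6.72, 6.78 and 7.35 in the same order. Chek1 and Chek2 read lowest there, at 9.28, 9.35, 9.22 and 9.15 and at 8.02, 7.97, 7.73 and 7.63. Atm was highest with the knockdown and PRDM14, at 7.63, 7.35, 7.22 and 7.44. Aurka, a mitotic kinase that phosphorylates p53, was lower with PRDM14 in both backgrounds, at −0.41 in knockdown and −0.74 in scramble cells.

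Of 24 measured further p53 targets, Gadd45a, a growth arrest gene, was the 1 called, higher with PRDM14 in scramble cells at 1.20. That is 1 of 21 above the filter, against 1.09% of all genes, and this call and that of Cdkn2a both subtract the scramble array. Gadd45a read 7.91 with the knockdown and PRDM14, 7.89 with the knockdown, 8.29 in scramble with PRDM14 and 7.09 in scramble. Like Perp and Sesn1 it was thus lowest in scramble. Cdkn1b and Psrc1 of the same list went the other way, highest in scramble. Cdkn1b read 6.84, 7.06, 7.14 and 7.73 and Psrc1 9.43, 9.47, 9.56 and 9.97 in the same order. Ccnd1 was higher with PRDM14 in both backgrounds, at 0.53 in knockdown and 0.81 in scramble cells. The medians of the 21 above the filter lay between −0.07 and −0.01 in the 4 comparisons. Cell cycle genes that p53 lowers through p21 and the DREAM complex had no call: 17 of 19 were below 0 with PRDM14 in scramble cells (median −0.22), 12 with PRDM14 in knockdown cells (−0.04), 13 in the knockdown without PRDM14 (−0.06) and 7 in the knockdown with PRDM14 (0.03), against 49.5%, 50.4%, 48.3% and 49.1% of all genes. The BCL2 family and caspase list had no call either, with medians between 0.01 and 0.07 in the 4 comparisons, and Casp8, an initiator caspase, differed most, at 0.68 with PRDM14 in knockdown cells (5.95 against 5.27, the second below the filter).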

How the data were processed

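The labels name 1 Affymetrix array per condition, with RNA labelled by a GeneChip 3′ IVT Express kit per the labels' protocols. The deposited values are log2 signals that the authors had normalised between arrays, with quartiles within 0.02 of each other. Values ran from 2.78 to 13.2, from which log base 2 was inferred. The submitters' processing notes name Affymetrix Expression Console. Its version, how background was corrected and how probes were summarised is not stated in any source used here. The table held 45141 probe sets, and 28898 were named to 1 gene by the platform annotation, and a gene was read on its probe set with the highest mean, the other probe sets being given beside it. Genes were filtered at the median of all named values, 5.40, and background per probe set was not determined. A difference between 2 arrays carries no test, and calls are a size rule. Average effects were fitted with limma 3.58.1 (lmFit, eBayes with trend) under R 4.3.3. The procedure was also run on simulated data with purely additive effects and the same noise SD for all genes. That setting differs from these data, where the dependence of one factor on the other is the error term, so it does not show how the fit performs here.

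The p53 target list, the pathway lists and the comparisons were chosen with earlier results of these data known. Genes with values on every array were Mdm2, Mdm4, Cdkn1a, those with a probe set past 2-fold, the 3 largest differences in each direction of each comparison, and those whose probe sets differed by over 0.5, and others were added in brief. The share of genes highest on the scramble array was computed after its values were seen. RefSeq symbols changed for 0 probe sets of the list. Alternatives were other thresholds, filters, probe set rules and centring.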

Additional observations from a re-analysis of the deposited data

Results flagged for a closer look

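Plk3, Sesn1, Mdm4 and Pmaip1 had differences of opposite sign in the 2 backgrounds, each larger than the pooled SD between probe sets of its comparison. With 1 array per condition none of these oppositions was tested. The PRDM14 difference of Plk3 was −0.21 in knockdown and 0.58 in scramble cells, and that of Sesn1 was −0.29 in knockdown and 0.57 in scramble cells, so 2 of 25 genes were opposite, as were 4.99% of all genes. The knockdown difference was −0.42 with PRDM14 and 0.37 without it for Plk3, 0.19 with and −0.32 without it for Mdm4, and 0.34 with and −0.22 without it for Pmaip1, so 3 of 25 were opposite, against 6.64% of all genes. For Sesn1 all 3 probe sets gave the opposition, and Plk3 and Pmaip1 had 1 probe set each. For Mdm4 1 probe set gave it, and the other above the filter gave 0.05 with and 0.03 without PRDM14, the same sign. Each of these pairs contains the scramble array.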

How the results depend on the processing

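At 1.5-fold the called genes numbered 5 for PRDM14 in scramble cells and 4 for the knockdown without PRDM14, and at 3-fold 0 and 0, against 1 and 1 at 2-fold. With every probe set counted on its own these 2 comparisons had 3 and 3 calls (Perp once and Sesn1 on 2 probe sets), and with probe sets averaged per gene the knockdown without PRDM14 had 2 (Perp and Sesn1). The shares of all genes called at 3-fold and under these probe set rules were not computed, so these counts have no background beside them. The median of the knockdown without PRDM14, −0.21, was −0.13 without a filter, −0.15 with the mean of probe sets and −0.054 over single probe sets. That of the knockdown with PRDM14, 0.03, was −0.015 with the mean of probe sets. The median dependence on the knockdown, 0.20, was 0.12, 0.13 and 0.10 under the same 3 settings. The other 61 recomputed summaries, of 75, stayed within their limits, among them 0 genes passing the additive fit under all settings run. The share highest on the scramble array, an alternative set chosen after seeing the data, ranged from 52.6% to 68.2%, against 27.8% to 29.8% of all genes or probe sets. For single genes 7 of 300 recomputed differences moved beyond the spread between probe sets, all with the mean of probe sets, and none of the called ones reversed. No paired analysis was possible because each condition has 1 array and the labels carry no replicate numbers. Leaving out an array was not possible either, and signal over background could not be assessed.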
